A study of Homo sapiens with 4 samples.

Results

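The nuclear pore complex was examined in DLD-1 cells, an established human colorectal cancer line, by following the RNA of its protein components. Members were all probes whose only gene symbol in the platform annotation was 1 of 31 listed pore genes. This gave 36 of 31741 probes on the array, for 28 of the 31 genes and of 18365 genes with a probe of their own. The genes were picked because NUP37 and AAAS were strongly lower in cells overexpressing miR-21, so the whole comparison between the lines is given as a description. For these probes a call sorts values and no p-value is printed. SEC13, NDC1 and POM121 had no probe of their own. NDC1, the membrane protein that anchors the pore, had 2 probes under its older symbol TMEM48. POM121 shared 2 probes with its near copy POM121C.

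RNA from 4 arrays was compared, 2 of DLD-1-miR-Vec cells and 2 of DLD-1-miR-21 cells. DLD-1-miR-21 cells stably carried a plasmid encoding human miR-21, and DLD-1-miR-Vec cells carried the empty pCMV-MIR vector. Both were G418-selected GFP-positive clones that were pooled, and both were kept in G418, so a pool of clones stands for each line. Whether the 2 arrays of each line were hybridized with RNA of different cultures is unknown, so their spread, and any p-value based on it, may be technical. MicroRNA-21-5p is the mature form that the plasmid is meant to raise, and it pairs with messenger RNAs mainly through its seed, shown in capitals (bases 2 to 8, from RefSeq, GRCh38.p14, chr17:59841273-59841294, plus strand).
hsa-miR-21-5p: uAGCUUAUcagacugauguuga
No probe carried the symbol of this microRNA gene, so its level was not measured here.

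Nuclear pores are large channels through the nuclear envelope, built from about as many protein types as there are genes listed here, each present in many copies. An outer ring on each face is made of the Y complex, and an inner ring lines the membrane. Membrane proteins anchor the rings, and proteins with phenylalanine-glycine (FG) repeats fill the channel and bind the transport receptors. Filaments on the cytoplasmic face remodel exported messenger RNA, and a basket on the nuclear face receives it. Pores are assembled both after mitosis and during interphase, and proliferating cells such as colorectal cancer cells must double them in each cycle.

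The deposited intensities were linear, had a background subtracted and were not normalized between arrays. Median intensity was 571 on both DLD-1-miR-Vec arrays, and in DLD-1-miR-21 it was 255 and 339.

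On the deposited scale, both DLD-1-miR-21 arrays were below both DLD-1-miR-Vec arrays in 33 of 36 pore probes, where 63.5% of all probes were. The median pore probe read 4660 and 5113 in DLD-1-miR-Vec (replicates 1 and 2) and 996 on each DLD-1-miR-21 array. The plot of deposited intensities shows this gap for each probe. The lines overlapped in NUP205, NUP62 and 1 probe of GLE1.

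**Figure D1:**
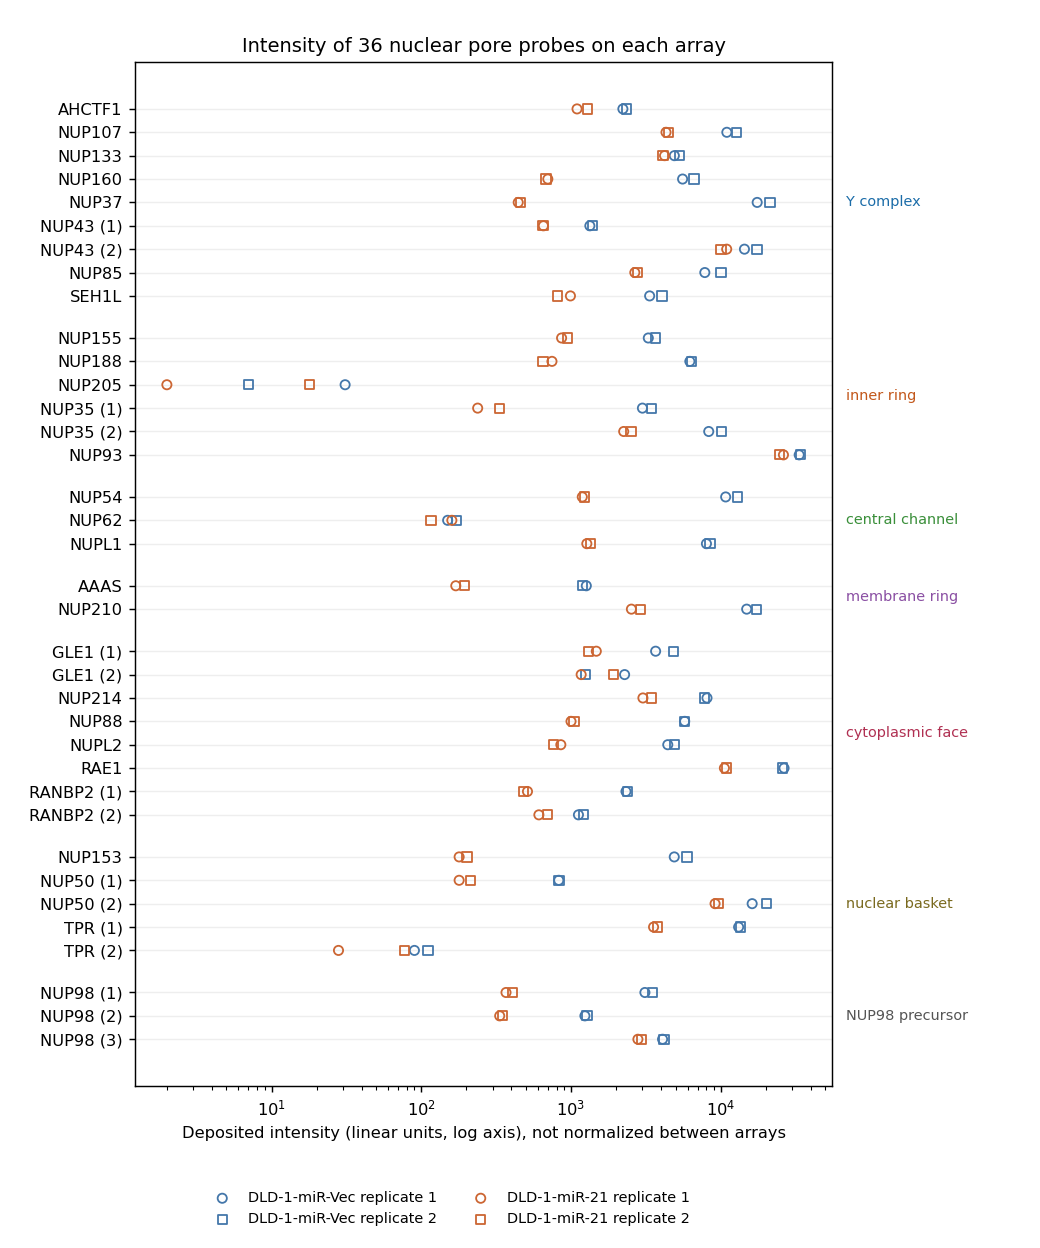
Deposited intensity (log axis, linear units) of each of 36 pore probes on the 4 arrays, grouped by subcomplex, with blue for DLD-1-miR-Vec and orange for DLD-1-miR-21. NUP37 reads 17509 and 21330 against 444 and 458, while NUP93 reads 33395 and 33993 against 26223 and 24780.

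The values were then quantile-normalized, which gives every array the same distribution, 50 was added, and log2 was taken. All further ratios are on this scale, with DLD-1-miR-21 set against DLD-1-miR-Vec, and ratios of dim probes are understated because of the added 50. A probe was called where its adjusted p (limma, Benjamini-Hochberg over all probes) was under 0.05. Over the 36 pore probes the log2 ratio had a median of -0.63, and its quartiles were -1.31 and 0.15. Over all probes the median was 0.07, with quartiles of -0.47 and 0.59. Of the pore probes, 18 were called lower, where 21.8% of all probes were, and 4 were called higher, where 23.0% were. The remaining 14 were not called, where 55.2% of all probes were not called and 44.8% were called in either direction. Without the probes of NUP37 and AAAS, 16 of 34 were lower and the median was -0.51. As the genes were picked for falls in this same comparison, nothing is read from these shares.

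By gene, 15 of 28 had a probe called lower and none higher. These were NUP37, NUP160, NUP155, NUP188, NUP35, NUP54, NUPL1, AAAS, NUP210, NUP88, NUPL2, RANBP2, NUP153, NUP50 and TPR. The share of all genes counted this way was not taken, and genes with several probes had more chances of a call. With the probes of each gene averaged, 13 of 28 were lower, where 24.5% of all genes were. NUP133, NUP43 and NUP93 had a probe called higher and none lower, NUP98 had probes called both ways, and 9 genes had none called. Each subcomplex held at least 1 probe called lower. The probes called higher lay in the outer and inner rings, apart from 1 of NUP98, and with median centring 0 were called higher. As the larger subcomplexes held up to 9 probes and 21.8% of all probes were lower, nothing is read from this spread. At least 1 log2 unit separated the lines downward in 14 pore probes, against 12.4% of all probes, and upward in 1, against 11.3%. Both DLD-1-miR-21 arrays lay below both DLD-1-miR-Vec arrays in 21 probes (34.8% of all probes), above them in 9 (41.4% of all probes), and overlapped them in 6.

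The identity of the cells was read from marker lists on the same scale, where 21.8% of all probes were lower and 23.0% higher. Of 15 colorectal epithelial probes, 3 were lower and 5 higher, with a median log2 ratio of 0.37. EPCAM had intensities of 98637 and 103276 in DLD-1-miR-Vec and 20843 and 22626 in DLD-1-miR-21 and was lower, and KRT19 had 149806 and 181335 against 103005 and 108992 and was not called. The lowest called probes were those of CLDN7 (-2.18) and KRT8 (-1.17), although a second CLDN7 probe was higher by 0.73. The highest were VIL1 (1.58), with 346 and 296 against 554 and 532, and KRT20 (1.28). Epithelial markers thus moved in both directions. Of 10 immune probes, 3 were higher and 0 lower, led by CD14 (1.43), with 2837 and 3072 against 2994 and 3778, and CD3D (1.05), with 14011 and 16460 against 10720 and 16798. The other CD3D probe read -5 to 46 and both PTPRC probes 18 to 81, and the summed intensity was 21010 and 25437 against 15681 and 23393. Of 12 stromal and endothelial probes, 6 were higher and 0 lower, led by LUM (1.47) and PDGFRB, with 317 and 327 against 345 and 445 for the latter, while COL3A1 read 8 to 31. Their sum was 8283 and 6817 in DLD-1-miR-Vec and 4990 and 7228 in DLD-1-miR-21. The part of these markers in the pore results was not tested.

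The number of pore probes called higher changed with the scale of the arrays and with the arrays used. Without normalization between arrays 28 were lower and 0 higher, where 44.2% and 1.31% of all probes were. All 36 then had a negative ratio, with a median of -1.79 where all probes had -0.63. With median centring 20 were lower and 0 higher, where 20.7% and 24% of all probes were. The median was then -0.94 where all probes had 0.22. Without DLD-1-miR-21 replicate 2, which left 1 array of that line, no probe on the array was called. Fewer pore probes, and fewer of all probes, were called in each direction without DLD-1-miR-21 replicate 1 or without DLD-1-miR-Vec replicate 2. The pore medians were then -0.66 and -0.60. The median ratio stayed between -0.66 and -0.52 whichever array was left out.

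**Figure D2:**
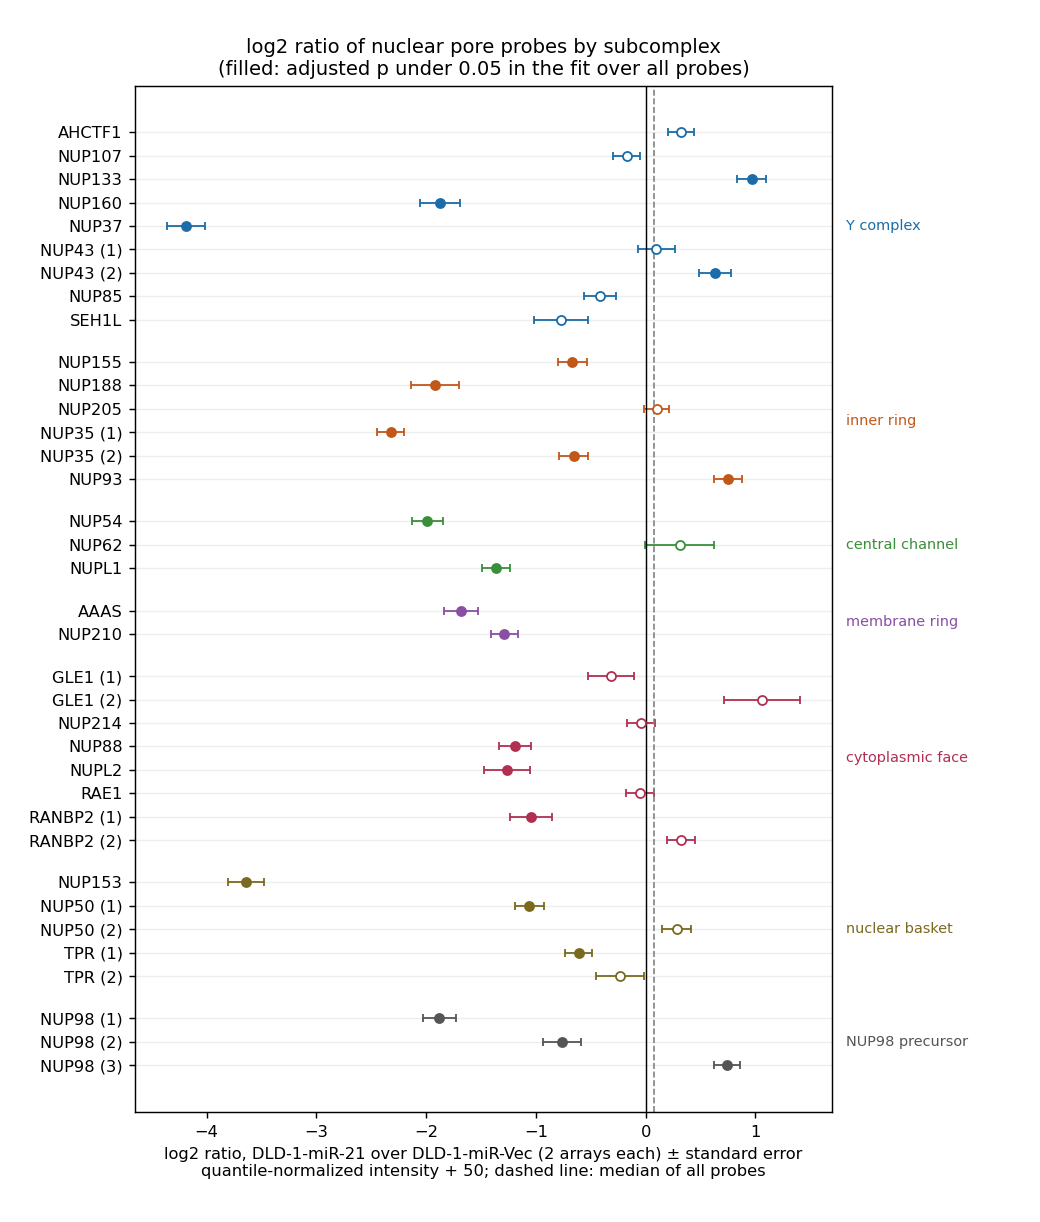
Log2 ratio between the lines, positive where DLD-1-miR-21 was higher (points, 2 arrays per line), with its standard error (bars) for each pore probe, by subcomplex; filled points were called and the dashed line is the median of all probes, 0.07. NUP37 (-4.19) and NUP153 (-3.64) lie furthest left, and NUP133 (0.97), NUP93 (0.75), 1 probe of NUP98 (0.74) and 1 of NUP43 (0.63) are the filled points on the right.

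In the Y complex, the outer ring scaffold, NUP37 had the lowest ratio of all pore probes, NUP160 was also lower, and NUP133 and NUP43 were higher. NUP37 encodes a beta-propeller protein at the tip of a short arm of the Y, and its gene lies at chr12:102073103-102120114 (GRCh38.p14). Its only probe had intensities of 17509 and 21330 in DLD-1-miR-Vec and 444 and 458 in DLD-1-miR-21. The lines were far apart and the arrays within each line close together. After normalization the log2 ratio was -4.19 (standard error 0.17), an 18.2-fold lower level. NUP160, the large subunit of that same arm to which NUP37 binds, went from 5560 and 6635 to 700 and 680, with a log2 ratio of -1.87 (standard error 0.18). Both were called lower, and under every alternative that tested them they kept that call, except without DLD-1-miR-21 replicate 2, where no probe was called.

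NUP133 sits at the base of the Y stem and links neighboring Y complexes into a ring. It had intensities of 4898 and 5315 in DLD-1-miR-Vec and 4216 and 4117 in DLD-1-miR-21, a drop on the deposited scale smaller than that of the array medians. The normalized log2 ratio was 0.97 (standard error 0.13), and this member was called higher. With median centring its ratio was 0.56 without a call, and without normalization it was -0.29. NUP107, its partner in the stem, had 10981 and 12775 against 4308 and 4487, with a ratio of -0.17 (standard error 0.12), and was not called. NUP43 and NUP85 belong to the other arm. A bright NUP43 probe had 14395 and 17456 against 10956 and 10035 and was called higher (log2 ratio 0.63, standard error 0.15), and a dimmer one had a ratio of 0.10. For NUP85 the ratio was -0.42 (standard error 0.15) and for SEH1L, a propeller bound to it, -0.77 (standard error 0.24). Neither was called, although both were called lower with cyclic loess and with median centring. AHCTF1, known as ELYS, brings the Y complex to chromatin after mitosis, and had a ratio of 0.32 (standard error 0.12) without a call. Of the 9 probes of the 8 measured genes, 2 were lower, 2 higher and 5 not called, with a median of -0.17. This was 22.2% in each direction, near the 21.8% lower and 23.0% higher of all probes.

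The inner ring held lower, higher and unmeasurable members side by side. NUP188, a large scaffold protein that binds NUP93, had 6216 and 6411 in DLD-1-miR-Vec and 746 and 650 in DLD-1-miR-21, with a log2 ratio of -1.92 (standard error 0.22). NUP35, also called NUP53, ties the ring to the membrane. Its dimmer probe went from 2999 and 3435 to 238 and 331 (log2 ratio -2.32, standard error 0.12), and its brighter probe from 8311 and 10161 to 2248 and 2517 (log2 ratio -0.66, standard error 0.13). Both NUP35 probes were thus lower, by 5.01-fold and 1.58-fold. NUP155, which binds NUP35 and the membrane, had 3282 and 3660 against 865 and 944 and a ratio of -0.67 (standard error 0.13). NUP93, the linker on which the ring is built, was the only inner ring gene called higher. It had 33395 and 33993 in DLD-1-miR-Vec and 26223 and 24780 in DLD-1-miR-21, a normalized log2 ratio of 0.75 (standard error 0.13), against -0.40 without normalization. NUP205, the near relative of NUP188, had intensities of 31 and 7 in DLD-1-miR-Vec and 2 and 18 in DLD-1-miR-21. This was among the dimmest 1% of probes, so its ratio of 0.10 carries no information on the gene. Altogether 4 of 6 inner ring probes were lower and 1 higher, where 21.8% and 23.0% of all probes were, with a median of -0.66.

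Of the central channel trio, with 1 probe each, NUP54 and NUPL1 were lower, where 21.8% of all probes were. NUP54 and NUPL1 form, with NUP62, the FG-repeat complex in the middle of the pore. NUP54 had 10784 and 12876 in DLD-1-miR-Vec and 1189 and 1230 in DLD-1-miR-21, with a log2 ratio of -1.99 (standard error 0.14), and NUPL1, now named NUP58, had 8024 and 8474 against 1275 and 1356, with -1.36 (standard error 0.13). In both genes the arrays of the lines were far apart and the arrays within a line close. The only NUP62 probe was dim on every array, with 150 and 171 in DLD-1-miR-Vec and 160 and 116 in DLD-1-miR-21, and the lines overlapped. All 4 of these NUP62 values lay under the median of their array, and the ratio of 0.31 (standard error 0.32) was not called.

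Both membrane ring genes with their own probe were lower, where 21.8% of all probes were. AAAS was among the genes whose fall led to the choice of this part, so nothing is read from this count. AAAS encodes ALADIN, a propeller protein held at the pore by NDC1 and mutated in triple A syndrome, and lies at chr12:53307460-53321610. It had 1265 and 1190 in DLD-1-miR-Vec and 170 and 194 in DLD-1-miR-21, and its log2 ratio was -1.68 (standard error 0.15), a 3.21-fold lower level. NUP210, also known as gp210, spans the membrane with most of its mass in the lumen. It had 14896 and 17358 against 2531 and 2921 and a ratio of -1.29 (standard error 0.12). NDC1, the anchor of ALADIN, was read by the TMEM48 probes, with 1575 and 1828 against 813 and 904 on one and 14339 and 15753 against 7945 and 7867 on the other. The ratios were 0.23 (standard error 0.13) and 0.31 (standard error 0.13), and neither was called. The probes shared by POM121 and POM121C, integral membrane proteins, had ratios of 0.00 (standard error 0.14) and -0.64 (standard error 0.21), again without a call, and cannot be assigned to one of the pair. With the TMEM48 probes counted as members, a choice made after seeing the data, the counts stayed at 18 lower and 4 higher and the median was -0.51.

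On the cytoplasmic face, NUP88 and NUPL2 were lower and their binding partners NUP214 and GLE1 were not called lower. NUP88 forms a complex with NUP214 and NUP62 that holds the export machinery. NUP88 had 5743 and 5711 in DLD-1-miR-Vec and 1000 and 1047 in DLD-1-miR-21, with a log2 ratio of -1.19 (standard error 0.14), whereas NUP214, a docking site for exported cargo, had 8091 and 7817 against 3021 and 3463, with -0.04 (standard error 0.13). The NUP214 arrays of the lines overlapped after normalization. NUPL2, now NUP42, binds GLE1, the activator of the export helicase DDX19. It had 4427 and 4910 against 855 and 765, and a ratio of -1.27 (standard error 0.21). GLE1 had ratios of -0.31 (standard error 0.21) and 1.06 (standard error 0.35) on its 2 probes, the latter being the largest positive ratio among pore probes but also the one with the largest standard error. That probe read 2280 and 1248 in DLD-1-miR-Vec and 1169 and 1914 in DLD-1-miR-21, so its arrays disagreed within each line. RAE1, a messenger RNA export factor that binds NUP98, had 26471 and 25751 against 10575 and 10870 and a ratio of -0.05 (standard error 0.13).

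RANBP2, also known as NUP358, builds the long cytoplasmic filaments and is a SUMO E3 ligase. One of its probes had 2328 and 2392 in DLD-1-miR-Vec and 512 and 483 in DLD-1-miR-21 and was lower (log2 ratio -1.05, standard error 0.19), and the other had 1121 and 1218 against 610 and 699 (log2 ratio 0.32, standard error 0.13). RANBP2 has near-identical copies of the RGPD family, so its signal is uncertain. A probe annotated RGPD3 alone was higher, with 7576 and 7721 against 5566 and 5978 (limma adjusted p = 0.00834, log2 ratio 0.83 with a standard error of 0.12). Altogether 3 of 8 probes of the cytoplasmic face were lower and 0 higher, where 21.8% and 23.0% of all probes were. Their median was -0.18.

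In the nuclear basket, NUP153 had the second lowest ratio of all pore probes. NUP153 is the FG protein that attaches the basket to the nuclear ring and binds importins and lamins, and its gene lies at chr6:17615037-17706925. It had intensities of 4892 and 5957 in DLD-1-miR-Vec and 179 and 202 in DLD-1-miR-21, with a log2 ratio of -3.64 (standard error 0.17), a 12.5-fold lower level. The DLD-1-miR-21 readings lay under the median of their arrays, and the DLD-1-miR-Vec readings well over it. TPR, the coiled-coil protein that forms the basket strands, had 13159 and 13513 against 3558 and 3775 on its bright probe (log2 ratio -0.61, standard error 0.12). Its other probe read 28 to 111 and was not called (-0.23, standard error 0.22). NUP50, a mobile cofactor of importin recycling, had a dimmer probe that was lower, with 828 and 830 against 179 and 214 (log2 ratio -1.06, standard error 0.14). The bright NUP50 probe had 16209 and 20314 against 9162 and 9677 and was not called (0.28, standard error 0.13). Of 5 basket probes, 3 were lower and 0 higher, where 21.8% and 23.0% of all probes were, with a median of -0.61.

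NUP98 encodes a precursor that is cut into NUP98, an FG protein found on both faces of the pore, and NUP96, a Y complex scaffold. Its 3 probes were called in both directions. Probe PH_hs_0040292 went from 3115 and 3485 in DLD-1-miR-Vec to 368 and 406 in DLD-1-miR-21 (log2 ratio -1.88, standard error 0.15), and probe PH_hs_0027212 from 1238 and 1277 to 334 and 349 (-0.76, standard error 0.17). Probe PH_hs_0045801 went only from 4086 and 4182 to 2797 and 2951 (0.74, standard error 0.12). Within each array, the normalized log2 value of PH_hs_0045801 minus that of PH_hs_0040292 was 0.38 and 0.25 in DLD-1-miR-Vec and 2.85 and 3.02 in DLD-1-miR-21. Levels of different probes are not comparable, so only the change of this difference is read. The probes of this gene therefore moved apart by 2.62 log2 units. Which part of the transcripts each probe binds is not given in the sources used here.

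Of the 7 pore genes with several probes, NUP50, RANBP2, GLE1 and NUP98 had probes with ratios of opposite sign. In NUP50 the difference between the probes within an array went from 4.17 and 4.41 log2 units in DLD-1-miR-Vec to 5.54 and 5.72 in DLD-1-miR-21, a shift of 1.34. In RANBP2 it went from -0.995 and -0.883 to 0.27 and 0.58, a shift of 1.36. The NUP35 probes, both lower, shifted by 1.67, from 1.47 and 1.53 to 3.21 and 3.13. These shifts were wider than the gaps between arrays of a line. In NUP43 and TPR the shift was 0.53 and 0.38. A single probe thus stands for 21 of the 28 genes, NUP37, NUP153 and AAAS among them, with no second probe to set beside it.

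**Figure D3:**
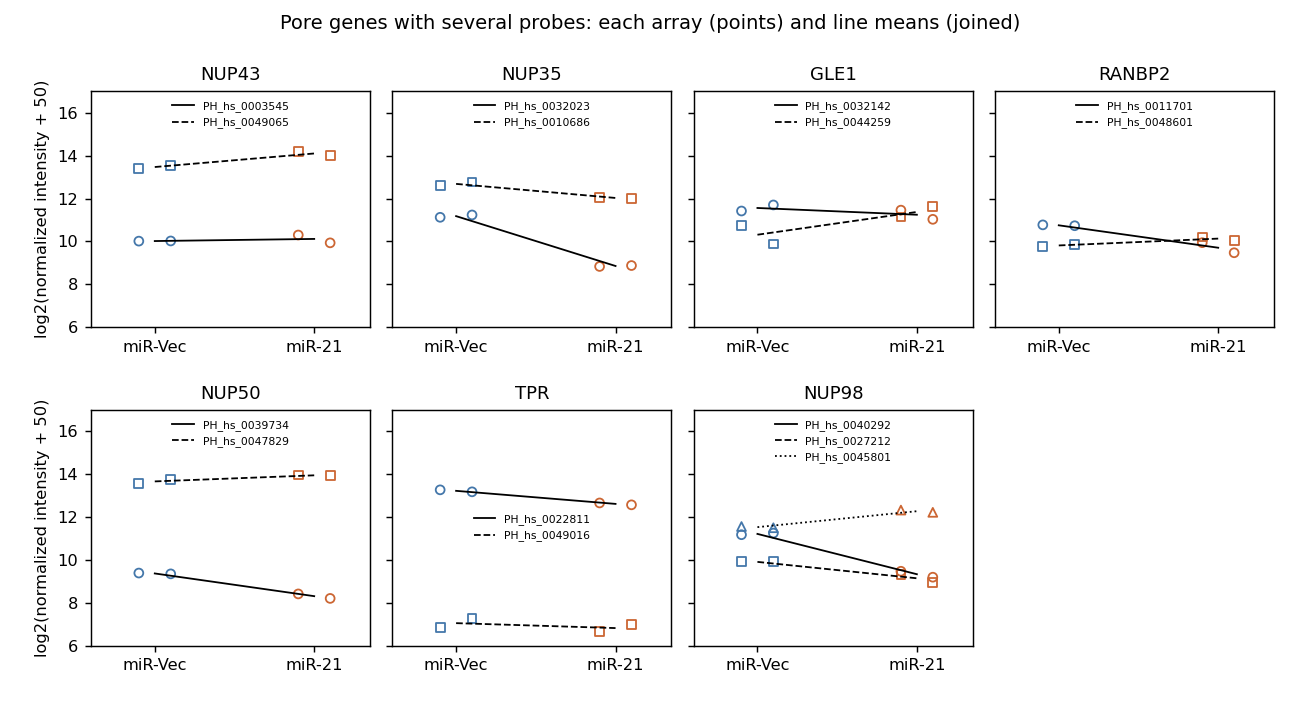
Log2 of normalized intensity plus 50 for the 7 pore genes with several probes; in each panel points are arrays (replicate 1 left, replicate 2 right), marker shapes are probes, and lines join the means of the 2 lines. Within NUP50, RANBP2, GLE1 and NUP98 some lines rise and others fall, and in NUP35 and TPR all lines fall.

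The arrays of a line differed little in pore probes. The median difference between replicates 1 and 2 was 0.11 log2 units in DLD-1-miR-Vec and 0.21 in DLD-1-miR-21, where all probes had 0.15 and 0.19. The largest such difference was 0.86 in DLD-1-miR-Vec, for a GLE1 probe, and 0.83 in DLD-1-miR-21, for NUP62. Over the 36 pore probes the normalized values of the DLD-1-miR-Vec arrays correlated with r = 0.994 and those of the DLD-1-miR-21 arrays with r = 0.993, against 0.805 to 0.839 between lines. Over all probes these were 0.984, 0.990 and 0.909 to 0.940. Probes of one array share its labeling and scale and are not independent replicates.

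Most pore probes were bright. Split into 10 equal groups by mean signal, the 5 brightest held 32 of the 36 pore probes. Across all probes the median ratio of these groups ran from -0.01 to 0.16, and it was 0.15 over the 5 brightest together. In those 5 groups 17 of 32 pore probes were called lower, where 26.4% of all probes were, and 4 higher, where 28.2% were. The median of the 6 pore probes in the brightest group was 0.12, and that of the 9 in each of the next 2 groups -0.66 and -0.77, in falling order of signal.

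**Figure D4:**
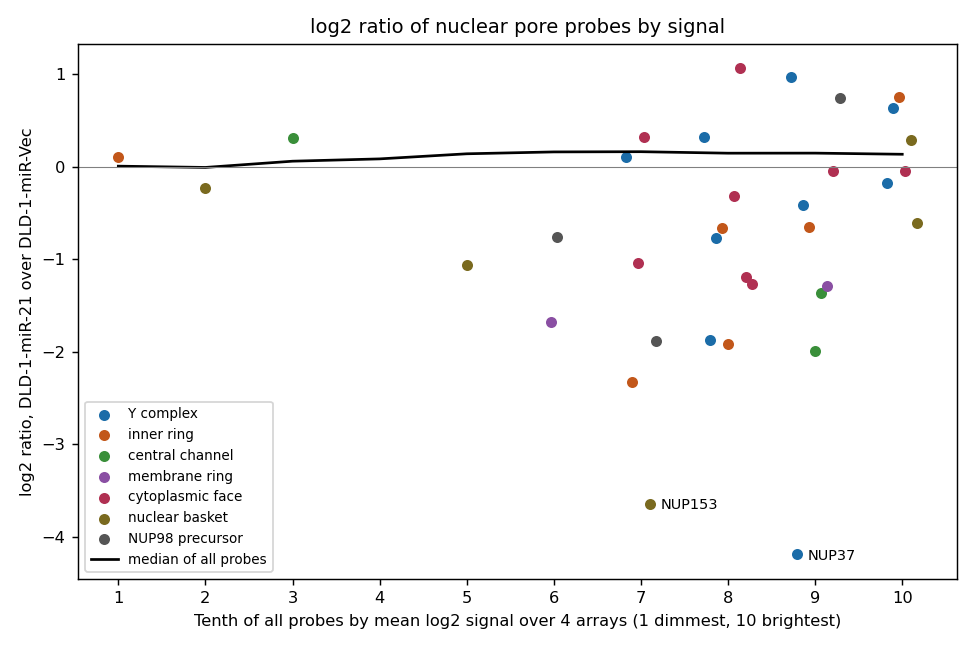
Log2 ratio of each pore probe (points, colored by subcomplex and spread sideways within a group) against the tenth of all probes in which its mean signal lies, with the median of all probes as a line. The line stays between -0.01 and 0.16, NUP37 and NUP153 lie furthest below it, and the 6 probes of the brightest group have a median of 0.12.

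Genes that work with the pore were read on the same arrays, where 21.8% of all probes were lower and 23.0% higher. Among importins and their adaptors, which carry proteins inward, 7 of 23 probes were lower (30.4%) and 2 higher (8.70%), with a median of -0.03. Both probes of KPNA2, the importin alpha of proliferating cells, were lower, with log2 ratios of -2.95 (standard error 0.19, adjusted p = 0.00224 from limma) and -2.08 (standard error 0.19). IPO7 and TNPO1 were higher by 0.64 and 0.55. Among exportins 5 of 10 probes were lower and 0 higher, with XPO7 at -1.76 and XPO6 at -1.48 and a median of -0.76. In the RAN cycle, which gives transport its direction, 5 of 9 probes were lower and 1 higher. NUTF2, the carrier that returns RAN to the nucleus, had -2.42 (standard error 0.12, adjusted p = 0.00196 from limma) and RANBP1 had -2.31, while RCC1, the exchange factor on chromatin, was higher by 1.03.

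In messenger RNA export, 11 of 17 probes were lower (64.7%, against 21.8% of all probes) and 2 higher (11.8%, against 23.0%), with a median of -0.59. The receptor NXF1 and its partner NXT1 went opposite ways. NXF1 had intensities of 19766 and 20885 in DLD-1-miR-Vec and 21939 and 23052 in DLD-1-miR-21 and was higher (limma adjusted p = 0.00342, log2 ratio 1.30 with a standard error of 0.12). NXT1 went from 14887 and 15499 to 911 and 996 and was lower (-2.71, standard error 0.13, adjusted p = 0.00196 from limma). The helicase DDX39A had -2.57 and ENY2, which is shared with the TREX-2 complex at the basket, was higher by 0.71. Among lamina and envelope genes 12 of 24 probes were lower and 6 higher, again against 21.8% and 23.0% of all probes, with a median of -0.46. BANF1, which bridges chromatin and envelope after mitosis, had -3.39, and SUN1 was higher by 1.71. TMPO had probes at -1.97 (standard error 0.18) and 2.60 (standard error 0.36). Among pore paralogs NUP62CL was lower (-0.94) and 3 of 6 probes were higher, where 23.0% of all probes were. RGPD1 (1.29, standard error 0.36) had 452 and 175 in DLD-1-miR-Vec against 315 and 541 in DLD-1-miR-21. The others were RGPD3 (0.83) and a POM121L2 probe (0.64) that read 37 to 94, while NUP210L read 8 to 30. Of 10 probes of known miR-21 targets, 2 were lower and 3 higher, where 21.8% and 23.0% of all probes were, with a median of -0.05. SPRY2 (-1.24) and the dimmer PDCD4 probe (-0.65) were lower, the latter with 140 and 125 in DLD-1-miR-Vec and 37 and 46 in DLD-1-miR-21. The brighter PDCD4 probe had 1054 and 1172 against 431 and 541 and was not called (-0.08). A probe of TPM1 (0.75), BTG2 (0.67) and TIMP3 (0.52) were higher, while other TPM1 probes had -0.24 and -0.01 without a call.

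The start regions of pore genes were searched for common promoter motifs. RefSeq promoters (GRCh38.p14, 250 bases before to 50 after the start) were found for 28 of the 31 genes, 36 promoters in all. Each motif was searched on both strands. The ETS core CCGGAAG, the binding sequence of ETS factors, lay in 13 of 36 pore promoters (36.1%) and in 10.3% of all 35116 promoters. The CCAAT box, CCAAT, lay in 38.9% and 34.6%, the YY1 motif AAGATGGCG in 11.1% and 1.75%, the palindromic NRF1 motif in 11.1% and 5.78%, the GC box GGGCGG in 47.2% and 45.0%, the E2F motifs TTTCCCGC or TTTGGCGC in 2.78% and 2.27%, and the TATA box TATAAA in 2.78% and 11.5%. By gene, the ETS core was present in 7 of the 15 with a probe lower and none higher and in 3 of the 10 other measured genes with a promoter. In the same order the counts were 5 and 6 for the CCAAT box, 1 and 3 for NRF1, and 7 and 4 for the GC box. They were 3 and 1 for YY1, 1 and 0 for E2F, and 0 and 1 for the TATA box. As the genes were picked for falls in this comparison, nothing is read from these splits. A match describes letters in the window and is neither a site nor a cause. The promoters of NUP37 and NUP54, of NUP153 and of NUP133 are shown for the lowest outer ring, channel and basket genes and for the member with the highest called ratio, each 5′ to 3′, with ETS core and CCAAT matches in capitals. All 4 lie on the minus strand, NUP37 at chr12:102120065-102120364, NUP54 at chr4:76148348-76148647, NUP153 at chr6:17706876-17707175 and NUP133 at chr1:229508292-229508591.
NUP37: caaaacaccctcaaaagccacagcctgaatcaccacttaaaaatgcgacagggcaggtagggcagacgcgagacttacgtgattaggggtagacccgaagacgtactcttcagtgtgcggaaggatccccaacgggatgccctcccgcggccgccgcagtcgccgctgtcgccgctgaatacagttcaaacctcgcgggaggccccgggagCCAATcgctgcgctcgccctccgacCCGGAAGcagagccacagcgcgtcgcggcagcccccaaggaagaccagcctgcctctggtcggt
NUP54: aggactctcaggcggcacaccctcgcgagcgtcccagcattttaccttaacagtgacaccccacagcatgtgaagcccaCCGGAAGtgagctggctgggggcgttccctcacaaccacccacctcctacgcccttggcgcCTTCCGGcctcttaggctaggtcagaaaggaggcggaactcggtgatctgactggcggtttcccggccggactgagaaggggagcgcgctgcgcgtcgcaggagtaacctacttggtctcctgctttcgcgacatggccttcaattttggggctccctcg
NUP153: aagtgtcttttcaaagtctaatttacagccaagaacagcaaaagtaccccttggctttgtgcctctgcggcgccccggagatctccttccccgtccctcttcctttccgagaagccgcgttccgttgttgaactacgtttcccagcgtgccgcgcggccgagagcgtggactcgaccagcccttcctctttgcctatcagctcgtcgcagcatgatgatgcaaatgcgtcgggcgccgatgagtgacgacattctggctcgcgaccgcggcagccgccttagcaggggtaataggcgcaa
NUP133: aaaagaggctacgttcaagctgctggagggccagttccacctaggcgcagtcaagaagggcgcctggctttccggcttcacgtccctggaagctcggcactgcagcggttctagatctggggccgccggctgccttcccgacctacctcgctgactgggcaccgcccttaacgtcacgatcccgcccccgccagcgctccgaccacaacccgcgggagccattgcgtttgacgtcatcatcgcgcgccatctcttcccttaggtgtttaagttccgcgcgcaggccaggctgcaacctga
NUP37 held an ETS core and a CCAAT box, and NUP54 held a pair of ETS cores on opposite strands. The windows of NUP153 and NUP133 held none of these letters, nor the NRF1, YY1 or E2F motifs, but that of NUP133 held a GC box.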

How the data were processed

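Amplified RNA carrying Cy5 was read on 4 Human OneArray Plus arrays with a single color, 2 for each line. The authors deposited 1 intensity per probe and array, on a linear scale and for 31741 probes. Values below 0 occur, which shows that background was removed. How the arrays were scanned and the background estimated is not given in the sources used here. Intensities were quantile-normalized, 50 was added, and log2 values were fitted on group alone with lmFit and eBayes (limma 3.58.1, R 4.3.3), on 2 residual degrees of freedom plus a prior of 2.48, and Benjamini-Hochberg adjustment over all probes. The number of arrays limits the precision. The annotation of the platform, in part outdated, gave 1 symbol to 24740 probes, several to 977 and none to 6024. Every probe of every member is reported, and of each other list the counts and up to 2 probes called highest and 2 called lowest. The members, lists, offset and normalization were chosen with earlier results of these data known. The fit was tested on data simulated on the normalized log2 scale, so that test does not cover the normalization between arrays. Alternatives were the replicate block, other normalizations, offsets, a floor, filters on dim probes, a variance trend, 1 value per gene, the call thresholds of the study's methods, and leaving out each array. Counting TMEM48 as NDC1 was added after seeing the data. The replicate numbers were not taken to pair the arrays. Sites for miR-21 in messenger RNAs were not analysed here.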

Additional observations from a re-analysis of the deposited data

How the results depend on the processing

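The count of 18 lower pore probes of 36 ranged from 14 to 20 under the alternatives that count probes, other than no normalization between arrays, where it was 28, and leaving out arrays, where it ran from 0 to 16. Of all probes, 12.3% to 27.2% were lower where the count was 14 to 20, and 44.2% where it was 28. With 1 value per gene, 13 (mean of probes) or 14 (brightest probe) of 28 genes were lower. For the mean of probes 24.5% of all genes were lower, and for the brightest probe this share was not taken. The count of 4 higher probes was 0 without normalization between arrays, 0 with median centring, 2 when probes were averaged per gene and 1 at an unadjusted p under 0.05 with at least 1 log2 unit, where 14 were lower (12.3% and 10.5% of all probes were lower and higher). The count of higher probes also changed on leaving out single arrays. The median of -0.63 moved to -1.79 without normalization and to -0.94 with median centring. Without normalization between arrays the ratios of NUP133 (-0.29), both NUP43 probes (-1.01 and -0.59), NUP93 (-0.40), AHCTF1 (-0.91), the third NUP98 probe (-0.52), the bright NUP50 probe (-0.94), 1 RANBP2 probe (-0.79), NUP62 (-0.17), NUP205 (-0.19) and the GLE1 probe with the highest ratio (-0.17) turned negative. In the fit with the replicate block, 17 were lower and 3 higher, where 18.1% and 17.9% of all probes were. TPR and NUP43 each lost a call there. The difference between replicates 1 and 2 correlated with r = -0.07 between the lines over all probes, so the numbers were not taken as pairs. Ratios of NUP37, NUP153 and AAAS stayed between -5.27 and -4.05, -4.50 and -3.40, and -2.46 and -1.53. With 2 arrays per line, a probe near background such as NUP205 can show neither a change nor its absence.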
